A study of Rattus norvegicus with 23 samples.

Results

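The genes described here take glucose into the cell, split it to pyruvate, and pass the pyruvate on to lactate or to acetyl-CoA. They were chosen as a list of 34 gene symbols, matched to the gene names in the deposited comparison tables and then followed by identifier through the count files of every group. Of the 34, 33 were found among the 14690 genes named in those tables. Pdk4 matched no name and is not analysed here. The count files of all 23 libraries list 32 of the 33, and Eno2, the neuronal form of enolase, is listed only for the differentiating CG4 cells, where it lay between 0.19 and 0.80 CPM, the unit explained beside the library totals. The members were not chosen by their values, although the list was drawn up with earlier results of these data known.

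The study measured RNA by sequencing in 6 groups of rat cells, in order to find genes that respond to the transcription factors Zfp488 and Nkx2.2 while oligodendrocytes mature. CG4 is a cell line of rat oligodendrocyte progenitors. In 3 groups of 4 libraries each, CG4 cells had been transduced with a vector and differentiated for 3 days: pCAG-IRES-EGFP (the control), pCAG-myc-Zfp488-IRES-EGFP or pCAGT7-Nkx2.2-IRES-EGFP. All 3 vectors carry the CAG promoter and EGFP, so the control shares both with the cells that received a factor. A further group of 3 libraries held wild-type CG4 cells, with no vector, under proliferative conditions. The last 2 groups held primary rat oligodendroglia, proliferating or differentiated for 3 days, with 4 libraries each. The share of CG4 cells that carried a vector is not given in the sources used here, and the CG4 groups are all of 1 line.

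As background, glucose enters through the transporters Slc2a1 and Slc2a3 and is trapped by hexokinase. Phosphofructokinase is the main point of control of the pathway, and its activator fructose 2,6-bisphosphate is made and removed by the Pfkfb enzymes. Lactate dehydrogenase turns pyruvate into lactate or back, Slc16a1 and Slc16a3 carry lactate across the membrane, and the pyruvate dehydrogenase complex, held in check by the Pdk kinases, sends pyruvate into the citrate cycle instead. Oligodendrocytes are known for using glycolysis and for exporting lactate to axons, and they need acetyl-CoA for the lipids of myelin. Many genes of the pathway are also known targets of the hypoxia inducible factors.

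Library totals ran from 20063345 to 49206479 counts. Values are given in CPM, the usual unit of a gene's counts relative to the library's total, here over the genes listed in every file and scaled by TMM (trimmed mean of M-values) across all libraries. The introduced genes followed the labels: Zfp488 stood at 130.5, 161, 175 and 199.99 CPM with its vector and at 33.7–59.0 in controls, and Nkx2-2 at 1469, 1745, 1282 and 1990.3 with its vector and at 211–299 in controls. In the cells that received Zfp488, Nkx2-2 was called lower than in controls by edgeR's test, described below. The summed level of 10 oligodendroglial markers was 4480 to 4803 CPM in proliferating and 93257 to 103704 in differentiating primary cells, and 5057 to 7131 in proliferating and 12633 to 20223 in control differentiating CG4 cells. In primary cells Csf1r, the only named gene of a 10-gene microglial list, stood at 346 to 362 CPM before and 12.3 to 16.4 CPM after differentiation, and it stayed below 1 CPM in every CG4 library. The 5 astrocyte markers named summed to 170 to 182 CPM in proliferating and 1049 to 2142 in differentiating primary cells. In CG4 cells they summed to 3.22 to 38.0 CPM in the proliferating group and to 224 to 2303 in the differentiating groups. In bulk RNA, fewer cells of a type and less RNA per cell cannot be told apart. Primary differentiating libraries 3 and 4 lay close to each other, with a chi-square of 1.74 per degree of freedom, as did libraries 1 and 2 at 8.16, against 28.1 to 35.5 between the pairs. All proliferating primary libraries lay close together, at 2.11 to 4.33, against 19.4 to 254 within the CG4 groups. The p-values of primary cells rest on these small spreads.

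Libraries and genes that go against the rest touch several results. Gapdh, the glyceraldehyde phosphate dehydrogenase, stood at 0.216, 0.0626 and 0.243 CPM in proliferating CG4 cells and at 984 CPM or more in every other library, while Tpi1, the triose phosphate isomerase, stood at 1109, 402 and 500.0 CPM in proliferating CG4 cells and at 1.31 CPM or less everywhere else. Both enzymes are needed by every cell that runs glycolysis, and both have near-identical copies in the genome. How reads that match several copies were counted is not given in the sources used here, and the cause of these values was not tested. In comparisons that include proliferating CG4 cells, the counts of called members over all libraries are therefore also given without these genes, the other counts include them, and no change of either is read there. Proliferating CG4 library 1 differed from libraries 2 and 3 in the pathway and in other lists. Of 31 members with a mean of at least 1 CPM, 27 (87.1%) were highest in library 1, against 34.7% of 10751 genes, and 14 were more than 1.5-fold above both other libraries (45.16%, against 7.264% of all genes). Of the 6 genes of the serine branch, 6 were highest in library 1 and 66.67% were more than 1.5-fold above both others, and of 19 hypoxia list genes 68.42% and 63.16% were. Of 14 citrate cycle genes 64.29% were highest in library 1, but 7.143% were more than 1.5-fold above both others, near the 7.264% of all genes. The hypoxia-induced growth factor gene Vegfa, at 321, 54.0 and 58.8 CPM, and Bnip3, a mitophagy gene, at 206, 26.7 and 38.1 CPM, showed the same order in those 3 libraries and were picked after their values were seen. Their part in the results was not tested, and results that rest on library 1 are given with and without it.

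The promoters are shown because the pathway is known to share a short element: the hypoxia inducible factors bind elements with the core ACGTG, and the E-box CACGTG, which contains it, is read by Myc and related factors. The 250 bases before the transcription start in the RefSeq table of build GRCr8 were searched on both strands; a CACGTG, being its own reverse complement, counts under both motifs. The table held 31 of the 33 members, all but Slc2a3 and Pgk1. ACGTG was present for 16 of 31 members (51.6%), for 18.1% of 27457 genes in the table and for 22.7% of the 10111 named genes tested in differentiating CG4 cells. CACGTG was present for 5 of 31 members (16.1%), namely Ldha, Pdhb, Pdk2, Pfkfb3 and Slc16a1, against 6.2% and 8.3%. A match describes letters and is not a binding site. The promoters of 4 members called in the comparisons are printed here, all 4 of them with a match. Other members called there had no match in their windows, among them Pkm, Pdk1, Pfkl, Pfkp, Eno1, Hk2, Pdha1, Slc16a3 and Bpgm. Capitals mark ACGTG on either strand, within CACGTG where that is complete. The Slc2a1 window is chr5:138002272-138002521 on the plus strand, with its match starting 51 bases before the start. The Ldha window is chr1:106507842-106508091 on the plus strand, with a complete CACGTG and a second ACGTG on the opposite strand. The Pfkm window is chr7:131113849-131114098 on the plus strand, with its match 132 bases before the start. The Pdk2 window is chr10:80483913-80484162 on the minus strand, with a CACGTG 143 bases before the start.
Slc2a1: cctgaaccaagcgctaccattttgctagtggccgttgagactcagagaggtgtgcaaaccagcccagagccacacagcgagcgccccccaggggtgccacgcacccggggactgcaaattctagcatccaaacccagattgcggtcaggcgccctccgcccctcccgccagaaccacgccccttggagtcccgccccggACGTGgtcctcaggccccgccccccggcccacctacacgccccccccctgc
Ldha: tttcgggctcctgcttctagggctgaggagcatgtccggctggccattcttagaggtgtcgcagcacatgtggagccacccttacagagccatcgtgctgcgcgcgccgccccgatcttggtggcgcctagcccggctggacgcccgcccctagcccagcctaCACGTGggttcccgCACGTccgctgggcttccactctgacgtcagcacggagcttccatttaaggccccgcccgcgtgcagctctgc
Pfkm: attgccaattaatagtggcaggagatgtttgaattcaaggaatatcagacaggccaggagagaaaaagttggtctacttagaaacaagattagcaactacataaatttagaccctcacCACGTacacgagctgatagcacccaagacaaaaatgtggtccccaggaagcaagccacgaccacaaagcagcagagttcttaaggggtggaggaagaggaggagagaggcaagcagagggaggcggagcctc
Pdk2: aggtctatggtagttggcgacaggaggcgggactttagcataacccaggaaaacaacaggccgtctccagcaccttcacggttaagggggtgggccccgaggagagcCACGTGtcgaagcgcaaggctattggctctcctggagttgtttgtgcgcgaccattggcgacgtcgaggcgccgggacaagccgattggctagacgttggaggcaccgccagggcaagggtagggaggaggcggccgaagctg

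**Figure D1:**
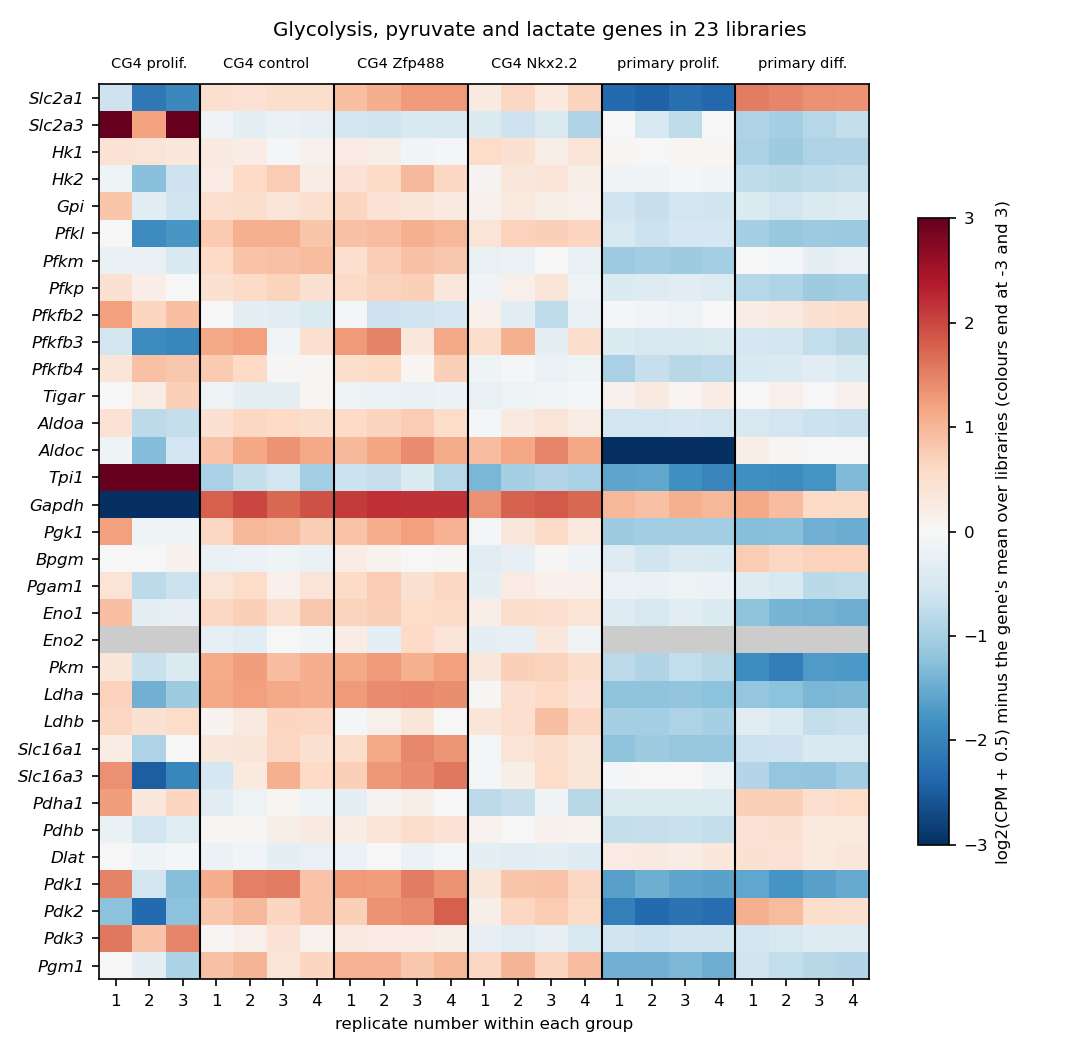
Levels of 33 members (1 line each) in 23 libraries (columns, ordered by group), as log2(CPM + 0.5) minus the gene's mean over the libraries shown, with colours ending at -3 and 3. Gapdh and Tpi1 are inverted in the 3 proliferating CG4 libraries, proliferating CG4 library 1 is above libraries 2 and 3 for 27 of 31 members, and Eno2 is grey outside differentiating CG4 cells, where it is not listed.

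The first question was how each factor moved the pathway in differentiating CG4 cells. With Zfp488, 4 members rose, among them Slc2a1, the glucose transporter of the cell surface, at 1.59-fold the control level, and Slc16a1, the lactate and pyruvate transporter MCT1, at 1.64-fold; the other 29 members were not called. With Nkx2.2, 7 members fell, among them the muscle-type phosphofructokinase Pfkm, lactate dehydrogenase A (Ldha), pyruvate kinase (Pkm) and the kinases Pdk1 and Pdk3 that switch off pyruvate dehydrogenase. Both factors were compared with the same 4 controls, so their values are set side by side and not treated as independent.

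Slc2a1 (ENSRNOG00000007284) stood at 280.2, 269, 290.5 and 290.3 CPM in the 4 controls, at 378, 428, 489 and 489.8 with Zfp488 and at 241, 309, 246 and 318 with Nkx2.2. All 4 Zfp488 libraries were above all controls, and the Nkx2.2 libraries spanned the controls. The log2 difference was 0.67 ± 0.11 (adjusted p = 0.0050) for Zfp488 and -0.01 ± 0.11 (adjusted p = 0.97) for Nkx2.2, by edgeR's quasi-likelihood test adjusted over all genes. Slc16a1 stood at 183, 189.9, 228 and 202 CPM in controls and at 214, 326, 400.1 and 368 with Zfp488. Its lowest Zfp488 library, replicate 1, lay within the controls and the other Zfp488 libraries above them, with a log2 difference of 0.71 ± 0.17 (adjusted p = 0.027). Pdhb, the beta subunit of the E1 enzyme of pyruvate dehydrogenase, differed by 0.28 ± 0.08 (adjusted p = 0.048), and Bpgm, which makes 2,3-bisphosphoglycerate from a glycolytic intermediate, by 0.29 ± 0.08 (adjusted p = 0.047). Slc16a3, the lactate exporter MCT4, ran from 2.15–7.48 CPM in controls and from 5.78–11.0 with Zfp488, and its difference of 0.90 ± 0.32 (adjusted p = 0.094) was not called.

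With Zfp488, 4 of 33 members rose and 0 fell by edgeR's test at an adjusted p of 0.05. Of 14811 genes, 5.89% were called higher and 3.15% lower, 9.04% in all. Unadjusted p was under 0.05 for 8 members. DESeq2 called 7 members higher and 0 lower, and 2136 of the 14811 genes in either direction. The median log2 difference was 0.11 over the members and -0.02 over all genes. The groups did not overlap for 5 members (Gapdh, Ldha, Slc2a1, Slc2a3 and Bpgm), and for 15% of all genes. Of these, Slc2a3 was lower with Zfp488, at 0.154–0.224 against 0.324–0.425 CPM in controls, on 5 to 7 against 12 to 19 counts. Sample numbers paired the 12 libraries, and with the replicate number as a block 10 members rose and 1 fell: Gapdh (0.32, adjusted p = 0.029), Pgk1 (0.24, adjusted p = 0.038), Eno2 (0.91, adjusted p = 0.035), Slc16a3 (0.97, adjusted p = 0.0024), Pdk2 (0.51, adjusted p = 0.027) and Pfkfb3 (0.38, adjusted p = 0.016) joined the called members, and Ldhb, the heart-type lactate dehydrogenase, was lower (-0.27, adjusted p = 0.027). Over all genes the block called 3576 of 14811 in either direction, against 1339 without it. The Slc2a1 call held in each alternative run. Slc16a1 lost its call when control 1, 2 or 4 or Zfp488 replicate 2, 3 or 4 was left out (log2 0.60 to 0.72), Pdhb when control 1, 2 or 3 or Zfp488 replicate 2, 3 or 4 was, and Bpgm whichever of the 8 libraries was left out, while Slc16a3 gained a call without control 3 (1.20, adjusted p = 0.048). Over all genes, leaving out a single library gave 458 to 1509 calls, against 1339 in the main fit.

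Pfkm (ENSRNOG00000057988) stood at 162, 196, 198 and 206 CPM in controls, at 153, 179, 199 and 187 with Zfp488 and at 92.1, 95.5, 109 and 92.4 with Nkx2.2. Every Nkx2.2 library lay below every control, a 1.94-fold lower level, with a log2 difference of -0.96 ± 0.10 (adjusted p = 0.00011); with Zfp488 it was -0.08 ± 0.10 (adjusted p = 0.69). Ldha (ENSRNOG00000013009) stood at 3175, 3392, 3178 and 3084 CPM in controls and 1477, 2052, 2182 and 1956 with Nkx2.2, again with no overlap, and was 1.66-fold lower (-0.73 ± 0.11, adjusted p = 0.0015). In the Zfp488 libraries Ldha was 3496, 3829.9, 3884 and 3802 CPM, above all controls, but its log2 difference of 0.24 ± 0.11 (adjusted p = 0.22) was not called. The Nkx2.2 replicate 1 library was the lowest of its group for Ldha and for Pgk1, the first ATP-making enzyme of the pathway, which stood at 657, 867, 1009 and 832 CPM against 1056–1368 in controls (-0.52 ± 0.13, adjusted p = 0.027).

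Pkm, which makes pyruvate in the final step, was 2965, 3241, 2604 and 2881 CPM in controls and 1727, 2217, 2159 and 1947 with Nkx2.2, without overlap (-0.53 ± 0.11, adjusted p = 0.0072). Pfkp, the platelet-type phosphofructokinase, fell by a smaller amount (-0.45 ± 0.12, adjusted p = 0.028). Of the pyruvate dehydrogenase kinases, Pdk3 was 36.7, 39.5, 47.8 and 38.5 CPM in controls and 29.9, 27.8, 29.7 and 25.1 with Nkx2.2, without overlap (-0.52 ± 0.09, adjusted p = 0.0030). Pdk1, itself a known hypoxia target, was 60.5, 81.0, 82.6 and 51.1 CPM in controls and 36.5, 50.2, 51.2 and 43.7 with Nkx2.2, where the highest Nkx2.2 library lay just above the lowest control (-0.59 ± 0.16, adjusted p = 0.031). Aldoc, the brain-type aldolase, differed by 0.06 ± 0.13 and Hk1, the housekeeping hexokinase, by 0.26 ± 0.11, neither of them called.

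With Nkx2.2, 7 of 33 members fell and 0 rose by edgeR's test, against 4.48% of genes called lower and 6.10% called higher. Unadjusted p was under 0.05 for 16 members. DESeq2 called 10 members lower and 0 higher, and 2320 of 14811 genes in either direction. The median was -0.23 over the members and -0.01 over all genes, and the groups did not overlap for 12 members, against 15.2% of all genes. With the replicate number as a block 14 members fell, adding Gpi (-0.28, adjusted p = 0.022), Pfkl (-0.31, adjusted p = 0.0062), Aldoa (-0.33, adjusted p = 0.0083), Pgam1 (-0.29, adjusted p = 0.041), Slc2a3 (-1.08, adjusted p = 0.048), Pdha1 (-0.46, adjusted p = 0.0037) and Pfkfb4 (-0.52, adjusted p = 0.032), and Hk1 rose (0.26, adjusted p = 0.0061). Over all genes the block called 3876 of 14811 in either direction, against 1567 without it. Pfkm, Ldha and Pdk3 were called in each alternative. Pfkp, Pgk1 and Pdk1 lost their calls when control 2 or 3 or Nkx2.2 replicate 1, 2 or 4 was left out (log2 -0.38 to -0.64), and Pkm when the 3 libraries numbered 1 were left out (-0.45, adjusted p = 0.07). Over all genes, leaving out a single library gave 924 to 2302 calls, and leaving out the libraries numbered 1 gave 943, against 1567 in the main fit.

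**Figure D2:**
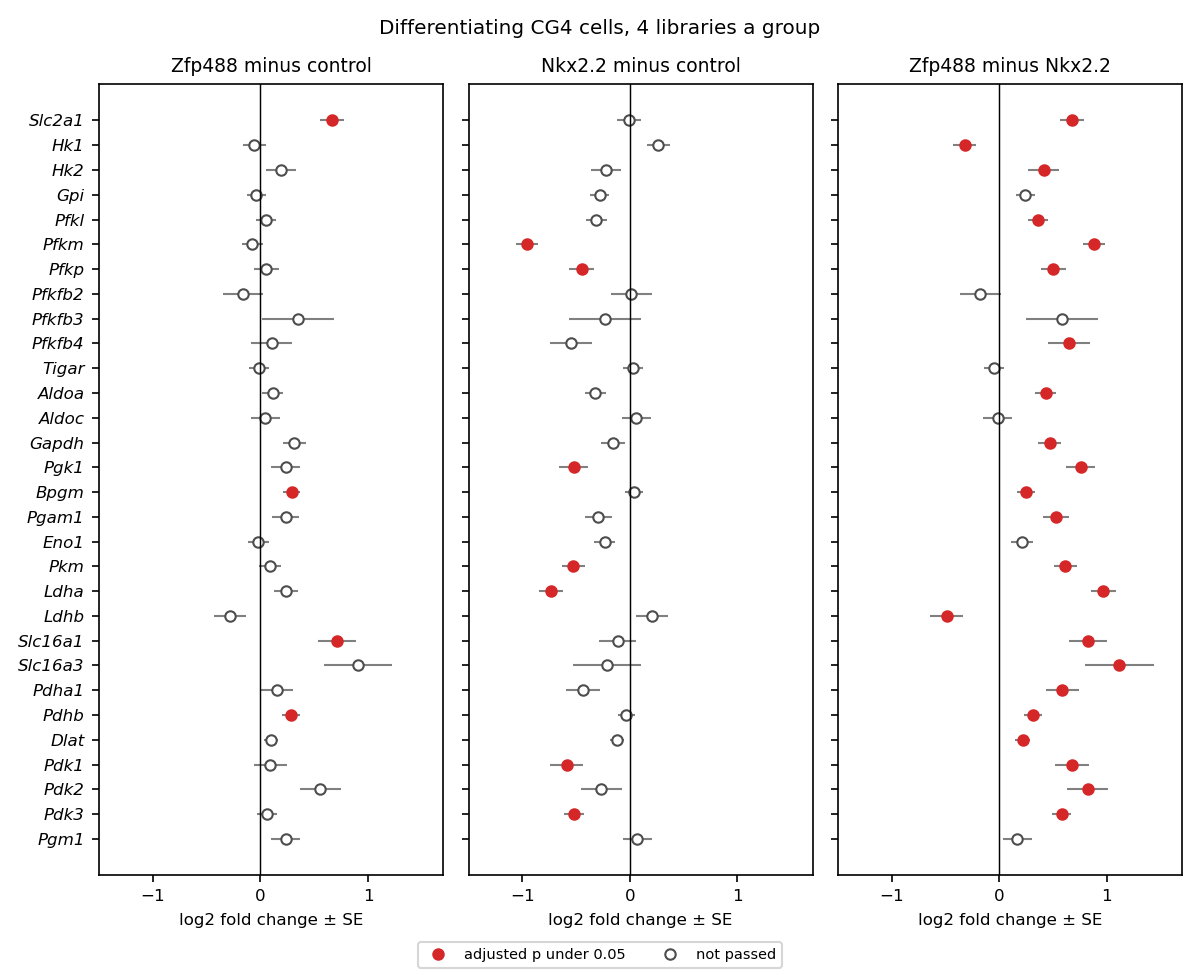
Log2 difference with its standard error for 30 members (without Tpi1, Eno2 and Slc2a3) in differentiating CG4 cells, for Zfp488 against control, Nkx2.2 against control and Zfp488 against Nkx2.2. Slc2a1 and Slc16a1 lie at 0.67 and 0.71 for Zfp488, Pfkm at -0.96 and Ldha at -0.73 for Nkx2.2, and most points of the direct comparison lie above 0.

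Set directly against each other, the factors separated most of the pathway: 21 of 33 members were higher with Zfp488 than with Nkx2.2 and 2 were lower, by edgeR's test. Of 14811 genes, 13.3% were called higher and 12% lower, 25.3% in all. The higher members included the glucose transporter Slc2a1, the lactate transporters Slc16a1 and Slc16a3, the phosphofructokinases (Pfkl, Pfkm, Pfkp), Aldoa, Gapdh, Pgk1, Pgam1, Pkm, Ldha, all of Pdk1, Pdk2 and Pdk3, and the pyruvate dehydrogenase subunits Pdha1, Pdhb and Dlat. Ldha was 1.96-fold and Pfkm 1.84-fold higher with Zfp488. The 2 lower members were Hk1 (-0.32 ± 0.11, adjusted p = 0.047) and Ldhb (-0.49 ± 0.15, adjusted p = 0.033).

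The smallest adjusted p-values were those of Pfkm (0.88 ± 0.10, adjusted p = 0.00011) and Ldha (0.97 ± 0.11, adjusted p = 0.00014). They were followed by Pgk1 (0.76 ± 0.13, adjusted p = 0.0018), Pkm (0.61 ± 0.11, adjusted p = 0.0015), Pdk3 (0.58 ± 0.09, adjusted p = 0.00081) and Slc2a1 (0.68 ± 0.11, adjusted p = 0.0011). Pdk2, which was 77.1, 120.0, 125 and 164 CPM with Zfp488, 82.0, 92.7, 73.2 and 84.7 in controls and 52.7, 72.6, 79.6 and 69.9 with Nkx2.2, was called between the factors (0.82 ± 0.19, adjusted p = 0.0083). For Zfp488 against control Pdk2 was not called (0.56 ± 0.19, adjusted p = 0.087), but it was under the replicate block, with DESeq2 (0.57, adjusted p = 0.039) and without Zfp488 replicate 1 (0.72, adjusted p = 0.012). Its lowest Zfp488 library, replicate 1, lay within the other groups. Slc16a3 (1.12 ± 0.32, adjusted p = 0.023), Pfkfb4, a kinase and phosphatase of fructose 2,6-bisphosphate (0.65 ± 0.19, adjusted p = 0.029), and Hk2, the inducible hexokinase (0.41 ± 0.14, adjusted p = 0.049), were called with smaller margins. Gpi, Eno1, Eno2, Aldoc, Slc2a3, Pfkfb2, Pfkfb3, Pgm1 and Tigar were not called. Nor was Tpi1, but at 1.31 CPM or less in these libraries no lack of change is read from it.

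The median log2 difference between the factors was 0.50 over the members and -0.01 over all genes, and 19 members against 25.2% of all genes had groups that did not overlap. Leaving out single libraries gave 16 to 21 higher and 0 to 1 lower members: Slc16a3, Hk1, Hk2, Ldhb, Pdha1, Dlat, Pfkfb4 and Bpgm lost their calls when some of the Zfp488 or Nkx2.2 libraries were dropped, in each case including Nkx2.2 replicate 4 except for Slc16a3, which lost its call without Zfp488 replicate 2 or 4 or Nkx2.2 replicate 1 or 2. Over all genes these runs gave 2585 to 4636 calls, against 3741 in the main fit.

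Neighbouring genes of the pathway were followed through lists drawn up beside the members. Of 22 further genes of the same steps, 5 rose and 0 fell with Zfp488, and 2 rose and 0 fell with Nkx2.2, against 5.89% and 6.10% of all genes called higher; the medians were both 0.05. Slc2a4, the insulin-responsive glucose transporter, was called with both factors, but stood at no more than 2.48 CPM in any library. The mitochondrial pyruvate carrier subunit Mpc1 was 53.9, 49.5, 49.8 and 60.6 CPM in controls and 72.0, 66.0, 66.7 and 65.6 with Zfp488, without overlap (0.35 ± 0.08, adjusted p = 0.023). Emb, embigin, a partner of the lactate transporters, was 106, 142, 134 and 119 CPM in controls and 182, 250.3, 165 and 303 with Nkx2.2, again without overlap (0.86 ± 0.18, adjusted p = 0.0090). Of 14 citrate cycle genes, 0 were called with Zfp488 (0 at an unadjusted p under 0.05) and 1 fell with Nkx2.2, Suclg2, a succinyl-CoA ligase subunit (-0.38 ± 0.07, adjusted p = 0.0050). With Nkx2.2, 6 of the 14 had an unadjusted p under 0.05 by edgeR's test. The median of the list was -0.19 with Nkx2.2, against -0.01 over all genes, and 4.48% of all genes were called lower.

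Hypoxia factor genes and their targets outside glycolysis were followed as a list of 21 genes because many members are known targets. Of these, 4 rose with Zfp488 and 0 fell, 0 rose with Nkx2.2 and 3 fell, and 9 were higher and 0 lower with Zfp488 than with Nkx2.2. Over all genes the shares called higher and lower were 5.89% and 3.15%, 6.10% and 4.48%, and 13.3% and 12% in these comparisons, and the medians of the list were 0.28, -0.25 and 0.58. Epas1, which encodes the hypoxia inducible factor 2 alpha, was 299, 311, 271 and 373 CPM in controls, 461, 626, 716 and 863 with Zfp488 and 156, 201, 299 and 236 with Nkx2.2. All Zfp488 libraries lay above all controls (1.10 ± 0.21, adjusted p = 0.0098), and the factors differed by 1.58 ± 0.21 (adjusted p = 0.00033). Adm, adrenomedullin, differed between the factors by 3.00 ± 0.49 (adjusted p = 0.0011). What part oxygen or these factors have in the members' levels was not tested. Markers of cell types were followed in the same libraries. The 10 oligodendroglial markers summed to 19688 to 34850 CPM with Zfp488 and 8405 to 19663 with Nkx2.2, both overlapping the controls at 12633 to 20223; 2 were called higher and 1 lower with Zfp488, and 1 higher and 0 lower with Nkx2.2. The 6 neuronal markers summed to 346 to 520.1 CPM with Zfp488, 155 to 212 with Nkx2.2 and 153 to 342 in controls, and the 5 Schwann cell markers to 175 to 293, 243 to 990.3 and 81.6 to 146. Of the 5 astrocyte markers, which summed to 406 to 1734 CPM with Zfp488, 224 to 2303 with Nkx2.2 and 288 to 2178 in controls, 3 were higher and 0 lower with Zfp488 than with Nkx2.2. The part of these markers' cells in the members' differences was not tested.

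The second question was what happened to the pathway when primary oligodendroglia differentiated. The glucose transporter gene Slc2a1 was 14.3-fold higher in differentiating cells, Pdk2, an inhibitory kinase of pyruvate dehydrogenase, 8.61-fold, the brain-type aldolase Aldoc 8.96-fold, and Pdha1 and Pdhb, the subunits of the E1 enzyme of pyruvate dehydrogenase, 2.14-fold and 2.17-fold. Pkm was 1.96-fold lower, Eno1, the general enolase, 1.88-fold and Hk1 1.95-fold, and Ldha was not called. The culture medium changed with differentiation, and Csf1r and the astrocyte markers moved at the same time, as given above. Schwann cell markers went from 11.7–12.6 to 175–231 CPM in sum and neuronal markers from 303–316 to 182–192. The 2 named markers of fibroblasts, pericytes and endothelium went from 57.0–78.9 to 5.54–10.6 CPM. The part of other cells in these differences was not tested.

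Slc2a1 was 39.4, 37.2, 41.3 and 38.6 CPM in proliferating and 579.8, 553, 523 and 514 in differentiating cells (3.84 ± 0.05, adjusted p = 4.8e-13). The 4 libraries of each state lay close together and far from the other state. Slc16a1 was 63.3, 70.1, 66.9 and 66.8 CPM and then 93.7, 94.6, 106 and 106 (0.62 ± 0.06, adjusted p = 1.3e-06), and Slc16a3 moved the other way, from 2.92–3.35 CPM to 1.16–1.56 (-1.23 ± 0.13, adjusted p = 5.3e-06). Slc2a3, the neuronal glucose transporter, was at or below 0.504 CPM and was not tested. Among the hexokinases, Hk1 went from 161–166 to 75.9–85.4 CPM (-0.96 ± 0.05, adjusted p = 4.9e-09) and Hk2 from 75.7–78.9 to 46.8–49.9 (-0.63 ± 0.04, adjusted p = 5.0e-08), both without overlap.

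Phosphofructokinase subunits split. Pfkm rose from 50.3–52.8 to 88.8–107 CPM (0.97 ± 0.06, adjusted p = 2.4e-08), while Pfkl, the liver type, fell from 200.21–224 to 141–157 (-0.51 ± 0.05, adjusted p = 1.7e-06) and Pfkp from 104–108 to 65.8–75.4 (-0.54 ± 0.05, adjusted p = 7.5e-07). None of the 3 pairs of groups overlapped. The aldolases split as well: Aldoc was 33.2, 32.1, 31.8 and 30.9 CPM in proliferating and 305, 275, 267 and 266 in differentiating cells (3.16 ± 0.05, adjusted p = 1.5e-12), whereas Aldoa, the general form, differed by -0.00 ± 0.04 (adjusted p = 0.94). Of the regulators of fructose 2,6-bisphosphate, Pfkfb2 (0.48 ± 0.08, adjusted p = 0.00020) and Pfkfb4 (0.49 ± 0.09, adjusted p = 0.00048) rose and Pfkfb3 fell by a small amount (-0.17 ± 0.06, adjusted p = 0.027).

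Below the split into triose phosphates, Pkm fell from 731–814 to 322–421 CPM (-0.97 ± 0.08, adjusted p = 6.4e-07) and Eno1 from 1200.4–1329 to 614–735 (-0.91 ± 0.06, adjusted p = 5.2e-08). Pgk1 (-0.26 ± 0.05, adjusted p = 0.00053) and Pgam1, the phosphoglycerate mutase (-0.38 ± 0.08, adjusted p = 0.0013), fell less. Gapdh was 1312, 1218, 1380.0 and 1317 CPM and then 1463, 1253, 998 and 984, with overlap (-0.11 ± 0.11, adjusted p = 0.35). Libraries 3 and 4 of the differentiating cells were lower in Gapdh, Pgam1 and Pgk1 than libraries 1 and 2, the same pairs as in the counts as a whole. Bpgm rose (1.21 ± 0.05, adjusted p = 2.5e-09), as did Pgm1, which links glycogen to the pathway (0.72 ± 0.06, adjusted p = 6.2e-07), and Gpi, the phosphoglucose isomerase (0.21 ± 0.05, adjusted p = 0.0026).

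At the pyruvate branch, Ldha was 619.6, 625, 638 and 616 CPM in proliferating and 643, 615, 555 and 564 in differentiating cells (-0.03 ± 0.05, adjusted p = 0.59), and Ldhb rose from 83.5–89.7 to 103–136 (0.50 ± 0.08, adjusted p = 9.6e-05). Pdha1 rose from 93.1–95.3 to 181–208 CPM (1.10 ± 0.05, adjusted p = 2.2e-09) and Pdhb from 93.5–96.8 to 189.5–212 (1.12 ± 0.05, adjusted p = 1.0e-09), and Dlat, the E2 core, rose less (0.16 ± 0.04, adjusted p = 0.0052). Pdk2 (ENSRNOG00000004172) was 10.8, 8.96, 9.67 and 9.18 CPM and then 98.4, 90.7, 67.4 and 66.0 (3.11 ± 0.14, adjusted p = 2.1e-09). The inhibitory kinase thus rose together with the enzyme it phosphorylates. Pdk3 rose slightly (0.20 ± 0.06, adjusted p = 0.0072), and Pdk1 (-0.01 ± 0.09) and Tigar, a phosphatase that removes fructose 2,6-bisphosphate (-0.06 ± 0.07), were not called.

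In primary cells 15 of 30 tested members rose and 10 fell by edgeR's test, but 41.5% of 12310 genes were called higher and 43.3% lower, 84.8% in all, so the number of calls is near that of all genes. The median was 0.08 over the members and -0.02 over all genes, and the groups did not overlap for 24 members and for 81.3% of all genes. Pfkfb3 lost its call when proliferating replicate 1 or 4 or differentiating replicate 3 or 4 was left out, or with the differentiating libraries summed in their pairs (-0.14, adjusted p = 0.10), and Gapdh gained a call without differentiating replicate 1 (-0.23, adjusted p = 0.025).

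Genes of pyruvate entry outside the members were followed in primary cells as well, and those named here have the smallest adjusted p of their list. Mpc1 was 50.0, 52.2, 54.1 and 52.8 CPM in proliferating and 150.2, 158, 164 and 164 in differentiating cells (1.65 ± 0.05, adjusted p = 6.0e-11), and its partner Mpc2 went from 32.2–34.6 to 78.2–82.4 CPM (1.32 ± 0.04, adjusted p = 1.8e-10). Pdhx, the protein that binds the E3 enzyme into the complex, rose by 1.67 ± 0.06 (adjusted p = 4.0e-10) and Dld, the E3 enzyme, by 0.83 ± 0.05 (adjusted p = 1.5e-08). Of 20 tested genes of the same steps 12 rose and 6 fell (median 0.43), and of 14 citrate cycle genes 10 rose and 3 fell (median 0.32). Epas1 went from 14.3–15.6 to 382–469 CPM (4.88 ± 0.08, adjusted p = 1.2e-12), and 13 of the 19 tested hypoxia list genes rose and 3 fell (median 0.54). These counts stand against 41.5% of all genes called higher and 43.3% lower, and 18 called of the 20 genes of the same steps is near the 84.8% of all genes.

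In the CG4 line the same comparison, control differentiating against proliferating cells, gave a different set of values. Slc2a1 was 3.80-fold higher, Pdk2 5.31-fold, Aldoc 3.38-fold and Pfkfb3 4.40-fold, and unlike in primary cells Pkm (2.48-fold) and Ldha (2.78-fold) also rose. Pdha1, Pdk3, Pfkfb2 and Slc2a3 fell. Transduction with a vector, reads of 150 against 100 bases and the gene list of the files differ between these groups along with differentiation, and their parts cannot be told apart. Marker sums were also higher in the controls than in proliferating cells. Astrocyte markers stood at 288 to 2178 against 3.22 to 38.0 CPM and Schwann cell markers at 81.6 to 146 against 17.6 to 30.5. Neuronal markers stood at 153 to 342 against 67.3 to 110 CPM. The part of these markers' cells was not tested.

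Slc2a1 was 131, 44.8 and 52.0 CPM in the 3 proliferating libraries against 269–290.5 in the controls (1.93 ± 0.36, adjusted p = 0.0018). Ldha was 2316, 533 and 687 CPM against 3084–3392 (1.48 ± 0.48, adjusted p = 0.024), and Pfkl was 313, 83.6 and 93.1 against 533–651 (1.90 ± 0.46, adjusted p = 0.0063). In all 3 genes proliferating library 1 stood far above libraries 2 and 3 and still below every control. Without library 1 the log2 differences were 2.57 for Slc2a1, 2.42 for Ldha (adjusted p = 2.2e-05) and 2.78 for Pfkl, and without library 3 Ldha was at 1.20 and not called (adjusted p = 0.077). Pfkfb3 rose from 74.4, 28.7 and 27.5 to 239, 256, 103 and 151 CPM (2.14 ± 0.46, adjusted p = 0.0039) and Pkm from 1749, 859 and 1008 to 2604–3241 (1.31 ± 0.25, adjusted p = 0.0021).

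Library 1 did not stand apart for Pfkm, at 93.2, 92.5 and 77.9 and then 162–206 CPM (1.15 ± 0.13, adjusted p = 0.00011), or for Pdk2, at 19.5, 8.86 and 19.6 and then 73.2–92.7 CPM (2.41 ± 0.28, adjusted p = 0.00014). Aldoc (1.76 ± 0.27, adjusted p = 0.00062), Hk2 (1.11 ± 0.27, adjusted p = 0.0067), Pgm1 (1.14 ± 0.25, adjusted p = 0.0037) and Pdhb (0.52 ± 0.12, adjusted p = 0.0052) rose as well. Pdha1 fell from 303, 157 and 198 to 100.4–132 CPM (-0.90 ± 0.21, adjusted p = 0.0061) and Pdk3 from 108, 64.4 and 98.6 to 36.7–47.8 (-1.12 ± 0.19, adjusted p = 0.00092). Pfkfb2 fell by 1.19 ± 0.18 (adjusted p = 0.00057), and Slc2a3, at 24.5, 1.78 and 17.5 CPM in proliferating and 0.324–0.425 in control cells, differed by -5.28 ± 0.78 (adjusted p = 0.00051).

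Of 32 tested members 14 were higher and 5 lower in the CG4 comparison by edgeR's test, or 13 and 4 of 30 without Gapdh and Tpi1, against 32.5% of 12486 genes called higher and 33.2% lower, 65.8% in all. The median was 0.53 over the members and 0.01 over all genes; 21 members and 67.1% of all genes did not overlap. Without proliferating library 1, 21 members were higher and 6 lower: Gpi (0.96), Pfkp (0.46), Pgk1 (1.00), Pgam1 (1.12), Eno1 (0.94), Slc16a3 (3.80) and Pdk1 (2.22) were then higher and Tigar was lower (-0.63), where with all libraries these members were not called. Aldoa (0.82 ± 0.30) lost its call without any 1 of the 4 controls or of proliferating libraries 2 and 3, and Slc16a1 (0.64 ± 0.25) without any 1 of the controls or proliferating library 3. Emb was 2.22 ± 0.18 (adjusted p = 1.9e-05) in this comparison, while of 14 citrate cycle genes 3 rose and 5 fell, among them citrate synthase, Cs (-1.03 ± 0.11, adjusted p = 9.1e-05).

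**Figure D3:**
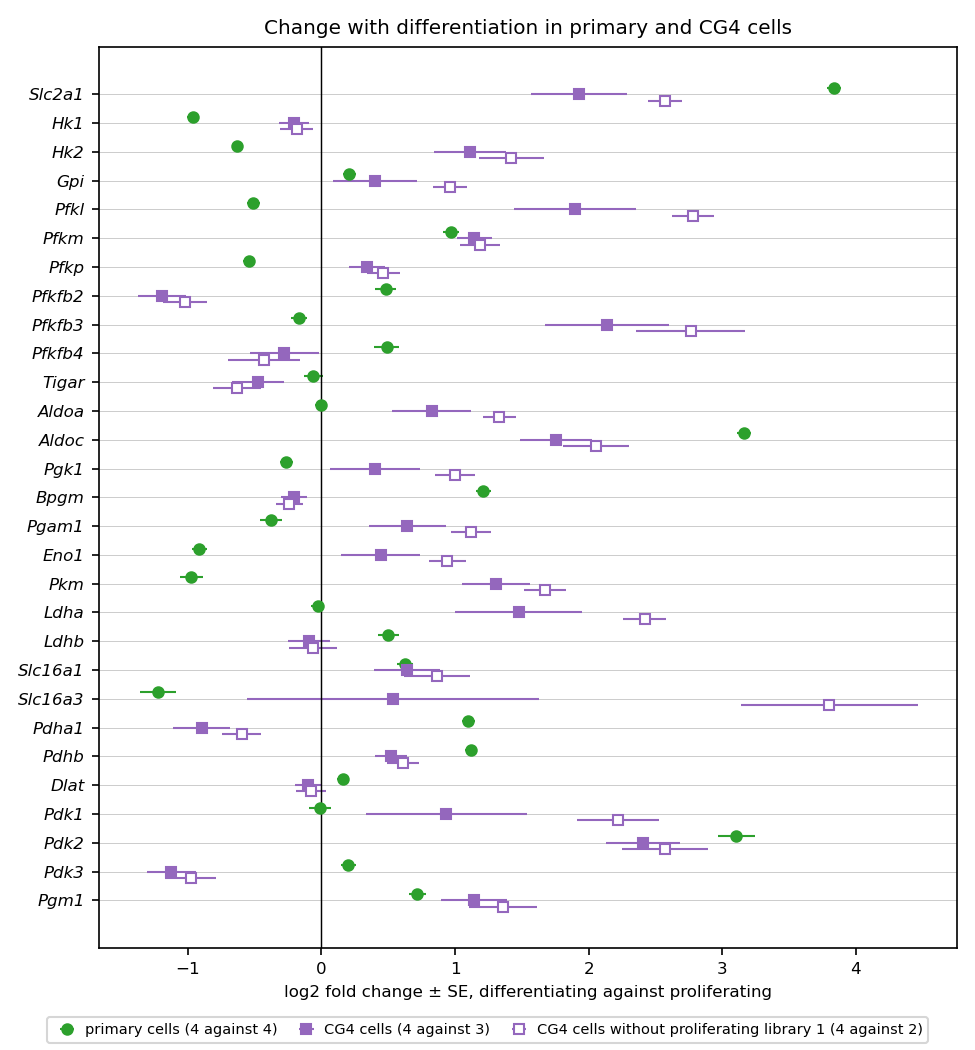
Log2 difference with its standard error between differentiating and proliferating cells for 29 members (without Tpi1, Gapdh, Eno2 and Slc2a3), in primary cells, in CG4 cells and in CG4 cells without proliferating library 1. Slc2a1, Aldoc and Pdk2 lie to the right in all 3, Pkm, Pfkl and Hk2 on opposite sides in primary and CG4 cells, and Pdk1 and Slc16a3 move most when library 1 is left out.

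The next question was whether the 2 kinds of cell answered differentiation alike. Vector, read length and the gene list of the files changed along with differentiation in CG4 cells but not in primary cells. Their parts cannot be told apart from the kind of cell in the values that follow. The members called in both fell into groups: Aldoc, Pdhb, Pdk2, Pfkm, Pgm1, Slc16a1 and Slc2a1 rose in both, Hk2, Pfkfb3, Pfkl and Pkm fell in primary and rose in CG4 cells, and Pdha1, Pdk3 and Pfkfb2 rose in primary and fell in CG4 cells. The interaction term, the CG4 response minus the primary response, was called for 11 members in the positive and 10 in the negative direction of 32 tested (10 and 9 of 30 without Gapdh and Tpi1), against 33.8% and 35.4% of 13207 genes, 69.3% in all. The median was 0.23 over the members and -0.03 over all genes.

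The glycolytic enzymes and regulators whose response was higher in CG4 cells included Pfkl (2.45 ± 0.45, adjusted p = 0.00022), Pfkfb3 (2.35 ± 0.46, adjusted p = 0.00036), Pkm (2.32 ± 0.26, adjusted p = 1.8e-06), Hk2 (1.78 ± 0.27, adjusted p = 3.5e-05), Ldha (1.54 ± 0.47, adjusted p = 0.0092) and Eno1 (1.40 ± 0.30, adjusted p = 0.00080). Slc2a1 rose in both kinds of cell, but by less in CG4 cells (-1.87 ± 0.35, adjusted p = 0.00024), and so did Aldoc (-1.36 ± 0.26). The pyruvate dehydrogenase subunit Pdha1 (-1.95 ± 0.22, adjusted p = 1.9e-06) and Bpgm (-1.38 ± 0.09, adjusted p = 9.5e-09), which rose in primary cells, had negative values. The carrier gene Mpc1, which rose in primary cells, differed in response by -1.67 ± 0.13 (adjusted p = 3.4e-08). Pfkm (0.22 ± 0.13), Pdk2 (-0.66 ± 0.30) and Slc16a1 (0.05 ± 0.25) were not called. Without proliferating CG4 library 1, 16 members were positive and 11 negative, with Ldha at 2.48, Pfkl at 3.33, Slc2a1 at -1.23, and Gpi (0.79), Pgk1 (1.30), Slc16a3 (5.05), Pdk1 (2.27), Pgm1 (0.68) and Tigar (-0.54) now called. Without control 3 or 4, proliferating CG4 library 2 or 3, or proliferating primary library 1, Pfkfb4 (-0.72) was not called, and without proliferating CG4 library 2 Pdk2 (-0.95, adjusted p = 0.00060) and Slc2a3 (-2.92, adjusted p = 0.030) were. Pdk2 was also called without differentiating primary library 4 (-0.74), Pfkm without control 1 (0.29), Pgm1 without control 3 (0.57), and Dlat without control 2, proliferating CG4 library 2, proliferating primary library 4 or differentiating primary library 3 (-0.25 to -0.26).

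Compared at the same stage, most members took a larger share of the counts in CG4 than in primary cells. Among differentiating cells Pdk1 was 7.83-fold, Pkm 7.68-fold, Ldha 5.43-fold and Pgk1 4.62-fold higher in the CG4 controls, whereas Slc2a1 was 1.91-fold lower and Pdha1, Pdhb, Dlat, Bpgm and Pfkfb2 were lower too. Cell type, vector, and the sequencing and file layout that go with them cannot be told apart here.

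Ldha was 3084–3392 CPM in CG4 controls and 555–643 in differentiating primary cells (2.44 ± 0.33, adjusted p = 1.1e-05), and Pkm was 2604–3241 and 322–421 (2.94 ± 0.19, adjusted p = 4.1e-09). Pdk1 stood at 51.1–82.6 and 7.89–9.52 CPM (2.97 ± 0.45, adjusted p = 3.3e-05). In each of the 3 the CG4 libraries were all above the primary ones. Slc2a1, at 269–290.5 and 514–579.8 CPM, went the other way (-0.93 ± 0.24, adjusted p = 0.0026), as did Pdha1 (-0.75 ± 0.15, adjusted p = 0.00039), Bpgm (-0.88 ± 0.06, adjusted p = 1.8e-08) and Dlat (-0.56 ± 0.06, adjusted p = 1.6e-06). Pdk2, at 73.2–92.7 and 66.0–98.4 CPM, overlapped and was not called (0.05 ± 0.20). In all, 24 of 32 members were higher and 6 lower (22 and 6 of 30 without Gapdh and Tpi1), against 36.8% and 36.2% of 13207 genes (73.0% in all); the median was 1.06 over the members and 0.00 over all genes, and 30 members and 71.1% of genes did not overlap. Pdhb lost its call without control 2, Slc2a3 without primary differentiating library 1 or 2, and Slc16a3 without any 1 of control 2, 3 or 4 or the primary differentiating libraries.

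Among proliferating cells 23 of 32 members were higher in CG4 and 4 lower (22 and 3 of 30 without Gapdh and Tpi1), against 39.2% and 32% of 13207 genes (71.2% in all), with a median of 0.70 over the members and 0.10 over all genes; 24 members and 69.1% of genes had groups that did not overlap. Aldoc was 5.48-fold higher, at 245, 108 and 180.2 CPM in CG4 and 30.9–33.2 in primary cells (2.45 ± 0.20, adjusted p = 3.9e-08). Pdk3 (1.94 ± 0.14, adjusted p = 1.3e-08), Ldhb (1.51 ± 0.13, adjusted p = 7.5e-08), Pdha1 (1.20 ± 0.16, adjusted p = 9.6e-06) and Pfkfb4 (1.60 ± 0.20, adjusted p = 4.5e-06) were higher, and Hk2 (-0.53 ± 0.20, adjusted p = 0.026), Pfkfb3 (-0.90 ± 0.34, adjusted p = 0.027) and Dlat (-0.35 ± 0.07, adjusted p = 0.00038) were lower. Library 1 decided several values: Ldha was 0.90 ± 0.34 with it and -0.03 without it (adjusted p = 0.80), Slc16a3 went from 0.06 ± 0.80 to -3.18 (adjusted p = 4.1e-05) and Aldoa from 0.28 ± 0.21 to -0.21 (adjusted p = 0.021), while without library 2 Aldoa was 0.51 (adjusted p = 0.033). Without library 1, Gpi (0.16), Eno1 (0.15) and Pkm (0.27) were no longer called, Pfkl (-1.28) and Pgam1 (-0.53) were called lower and Tigar (0.33) higher, Pdk1 was 0.72 rather than 1.99 ± 0.46, and 20 members were higher and 8 lower. Hk2 and Pfkfb3 lost their calls without proliferating CG4 library 2 or 3, and also without primary library 3 or 4 (Hk2) or 1 (Pfkfb3), and Pdk2 lost its call without CG4 library 3.

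**Figure D4:**
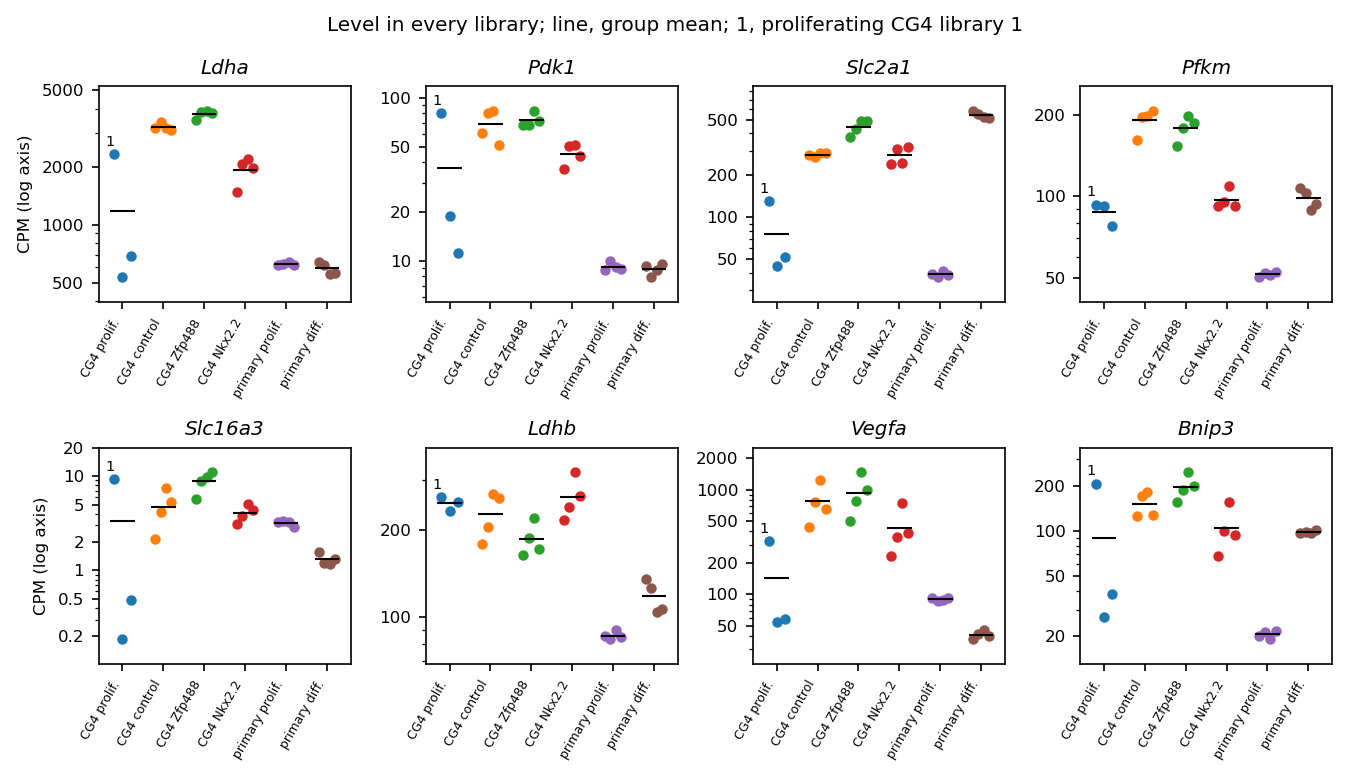
CPM on a log axis in each library (points) of the 6 groups for Ldha, Pdk1, Slc2a1, Pfkm, Slc16a3, Ldhb and the hypoxia-responsive genes Vegfa and Bnip3. Slc2a1 lies at 37.2 to 41.3 CPM in proliferating and 514 to 579.8 in differentiating primary cells, and proliferating CG4 library 1 stands above libraries 2 and 3 for Ldha (2316 against 533 and 687), Pdk1, Slc16a3, Vegfa and Bnip3.

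The balance between isozymes of a step was read as the log2 ratio of their counts within each library, which needs no scaling between libraries; since gene lengths were not used, only changes of a ratio between groups are given, with no test, over 10 pairs. The ratio Ldhb/Ldha was -3.83 ± 0.31 (SD, n = 4) in controls, -4.34 ± 0.14 with Zfp488 and -2.88 ± 0.15 with Nkx2.2, and the Nkx2.2 libraries overlapped neither other group. In primary cells the ratio went from -2.86 ± 0.03 to -2.34 ± 0.09, without overlap. The heart-type subunit thus took a larger share of the lactate dehydrogenase RNA with Nkx2.2 and in differentiating primary cells. In proliferating CG4 cells the 3 libraries were at -3.15, -1.19 and -1.46, with library 1 apart.

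Phosphofructokinase shifted between liver or platelet and muscle subunits. Pfkl/Pfkm was 1.65 ± 0.15 in controls, 1.78 ± 0.09 with Zfp488 and 2.29 ± 0.12 with Nkx2.2, and Pfkp/Pfkm was 0.07 ± 0.16, 0.20 ± 0.22 and 0.57 ± 0.13, with the Nkx2.2 libraries above all controls in both. In primary cells Pfkl/Pfkm went from 2.06 ± 0.09 to 0.58 ± 0.11 and Pfkp/Pfkm from 1.03 ± 0.04 to -0.48 ± 0.03 on differentiation. The change in primary cells was toward Pfkm and that with Nkx2.2 away from it. Aldoc/Aldoa went from -4.61 ± 0.06 to -1.44 ± 0.04 in primary cells, and was -2.39 ± 0.40 in proliferating CG4 cells, -1.504 ± 0.15 in controls and -1.12 ± 0.08 with Nkx2.2. Pdk1/Pdk2 went from -0.07 ± 0.18 to -3.17 ± 0.35 in primary cells and was -0.30 ± 0.38 in CG4 controls. Hk2/Hk1 rose from -1.09 ± 0.02 to -0.76 ± 0.04 in primary cells, where both hexokinases fell, and Slc16a3/Slc16a1 went from -4.39 ± 0.09 to -6.26 ± 0.25.

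**Figure D5:**
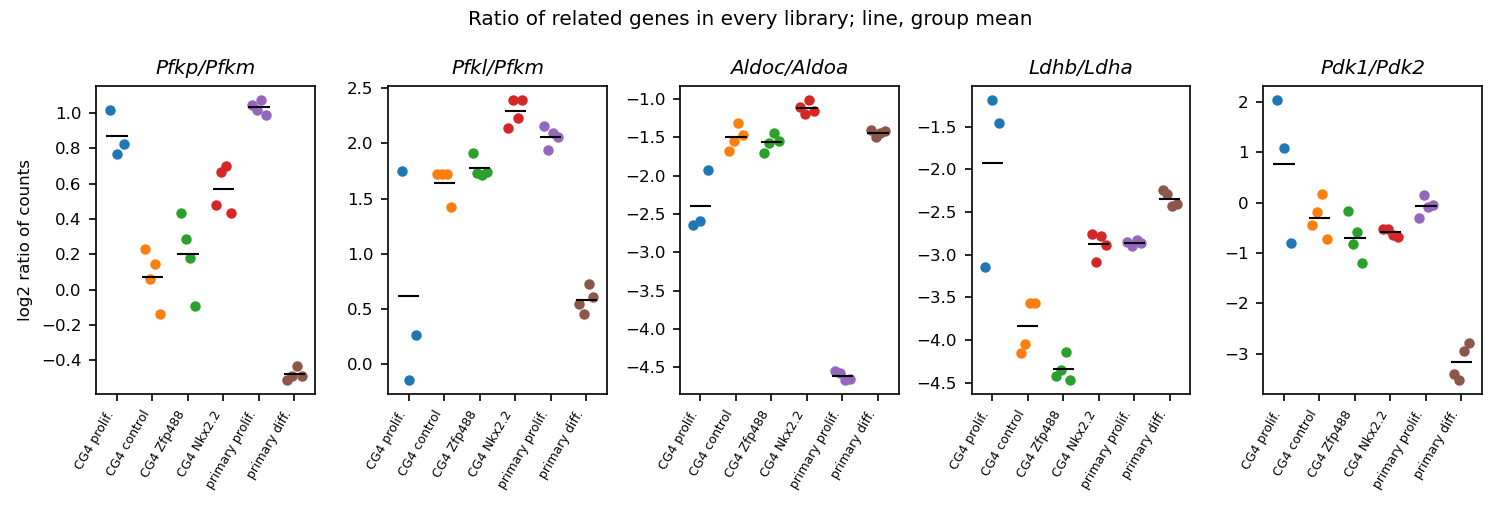
Log2 ratio of the counts of isozyme pairs in each library of the 6 groups, for Pfkp/Pfkm, Pfkl/Pfkm, Aldoc/Aldoa, Ldhb/Ldha and Pdk1/Pdk2. The Nkx2.2 libraries lie above the controls for both Pfkm ratios and for Ldhb/Ldha, and the primary cells move from 1.03 to -0.48 for Pfkp/Pfkm and from -0.07 to -3.17 for Pdk1/Pdk2.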

How the data were processed

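Paired reads of 100 bases (proliferating CG4 cells) or 150 bases (all others) were sequenced, per the labels' design text. The authors used Trimmomatic 0.36, STAR 2.5.2b, featureCounts of Subread 1.5.2, DESeq2, edgeR and rn6, per the submitters' processing notes. For the strand setting, the annotation and reads that match several places, nothing is given in the sources used here. The deposited count files hold raw counts per gene and library and were the only values tested. The deposited comparison tables hold the authors' mean normalised signal, log2 fold changes and p-values, and only their gene names were used.

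The quasi-likelihood F test of edgeR 4.0.16 was run in R 4.3.3 on the raw counts (TMM, filterByExpr, two-sided, Benjamini-Hochberg adjustment over all genes tested, threshold 0.05), and the scripts were first tested on simulated data. Factor comparisons came from a fit of the 12 differentiating CG4 libraries, primary differentiation from 8 libraries, CG4 differentiation from 7, and comparisons between kinds of cell from 15 libraries over genes listed in all their files. The standard error is the log2 difference divided by the square root of F. The samples are titled as biological replicates; whether they came from separate cultures is not stated, and the p-values describe the spread among these libraries, which may be technical. Same-numbered libraries deviated together in differentiating CG4 cells (every correlation from 0.143 to 0.69 over genes), so these numbers were taken to pair the samples; correlations with other numbers reached 0.386, and for number 4 of control and Nkx2.2 the other-number value (0.291) was above the same-number value (0.143); in primary cells (-0.0443 to 0.103) and between CG4 controls and proliferating cells (-0.13 to 0.0449) they do not.

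Every member is accounted for; other genes are named where they are among the up to 4 genes of their list with the smallest adjusted p in a comparison and pass there, or were introduced. Members and lists were chosen with earlier results of these data known. Alternatives were DESeq2 1.42.0, another scaling, no filter, the replicate block, fewer libraries, and each library left out.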

Additional observations from a re-analysis of the deposited data

Results flagged for a closer look

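In 8 of 163 groups of 4 libraries tested with Dixon's criterion, 1 library lay far from the other 3; chance gives about 1 in 20 groups. These were Hk1 at 161 CPM in proliferating primary library 2, Pdk3 at 22.4 CPM in the same library, Pgm1 at 45 CPM in proliferating primary library 3, Gpi at 368 CPM in differentiating primary library 2, Tpi1 at 0.461 CPM in differentiating primary library 4, Pdha1 at 117 CPM in Nkx2.2 library 3, Pdhb at 154 CPM in Nkx2.2 library 2 and Pgm1 at 203 CPM in Zfp488 library 3.

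The response to differentiation differed between CG4 and primary cells for 21 members by the interaction term of edgeR's test. Vector, read length and the gene list of the files changed only in the CG4 comparison and cannot be told apart from the kind of cell. The log2 difference, CG4 minus primary, was positive for Hk1 (0.80), Hk2 (1.78), Pfkl (2.45), Pfkp (0.93), Aldoa (0.87), Pgam1 (1.06), Eno1 (1.40), Pkm (2.32), Ldha (1.54), Pfkfb3 (2.35) and Gapdh (13.84). It was negative for Aldoc (-1.36), Ldhb (-0.55), Slc2a1 (-1.87), Pdk3 (-1.29), Pdha1 (-1.95), Pdhb (-0.55), Pfkfb2 (-1.63), Pfkfb4 (-0.72), Bpgm (-1.38) and Tpi1 (-9.62). The values of Gapdh and Tpi1 rest on the inverted counts of the proliferating CG4 libraries and are not read as changes.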

How the results depend on the processing

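Of 156 calls of members over the 8 comparisons, 124 held under every alternative; of 2281 alternative values of called members, 2129 kept the call, 151 lost it and 1 reversed, and 42 member results that were not called gained a call under at least 1 alternative. Without proliferating CG4 replicate 1, 3 members changed sign in proliferating CG4 against primary cells: over single libraries left out, Ldha ran from -0.030 to 1.26, Aldoa from -0.21 to 0.51 and Slc16a3 from -3.18 to 0.62, each lowest without that library. With Zfp488 against control the 4 higher members became 2 with no filter, 7 with DESeq2 and 1 to 4 with single libraries left out. Over all genes DESeq2 called 2136 of 14811 there, against 1339 in the main fit. With Nkx2.2 the 7 lower members became 4 without the 3 libraries numbered 1, an alternative chosen after the data were seen, and 4 to 10 with single libraries left out. Between the factors the 2 lower members became 1 with DESeq2 size factors as scaling, with no filter, with only the 8 libraries compared and without the libraries numbered 1, and 0 to 1 with single libraries left out. The 4 members lower in proliferating CG4 than primary cells became 2 to 8, with 8 reached without CG4 replicate 1 and 2 without CG4 replicate 2 or 3. The cause was not tested.

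With the replicate number as a block, the counts were 10 higher and 1 lower for Zfp488, and 1 higher and 14 lower for Nkx2.2. Over all 14811 genes the block called 3576 with Zfp488 and 3876 with Nkx2.2, against 1339 and 1567 without it. In the other comparisons the block changed no member count by more than 1.5 times. A block within each kind of cell could not be fitted for the 2 comparisons between CG4 and primary cells at the same stage. The exclusion of Gapdh and Tpi1 was also chosen after the data were seen. Over 10 isozyme pairs, none of 271 alternative ratios moved by as much as the SD between libraries. Leaving out 1 library cannot move a group mean that far, so those alternatives could not show whether a ratio rests on 1 library. Outside proliferating CG4 cells Eno2 and Slc2a3, below 1 CPM, rest on few counts, which limits what can be detected in them at this depth. Tpi1 also rests on few counts there, at 1.31 CPM or less, against 402 to 1109 CPM in proliferating CG4 cells. Its low values are part of the inverted counts, whose cause was not tested, and are not read as low expression.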
